A study of Mus musculus with 12 samples.

Results

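The cells described here were mammary gland fibroblasts rich in Fabp4 and low in Postn. A cell counted as a fibroblast when it held at least 20 unique molecular identifiers (UMIs, each standing for 1 captured RNA molecule) of Col1a1, Col1a2 and Col3a1 together and none of Ptprc, Pecam1 or Epcam, which mark immune, endothelial and epithelial cells. Of these, the cells with at least 10 UMIs of Fabp4, fewer than 30 of Postn, fewer than 20 of Pi16, none of Tnc and fewer than 3 of Gdf10 were kept. The rule found 4795 cells among 33709 fibroblasts (14.2%). These came from 12 libraries with 46257 cells that had 500 or more genes, 1000 or more UMIs and no more than 5% of UMIs from mitochondrial genes. They are called Fabp4 fibroblasts below, and the remaining 28914 are called other fibroblasts. Of the 7146 fibroblasts with 10 or more Fabp4 UMIs, 1758 missed the Postn limit, 827 the Gdf10 limit, 241 the Tnc limit and 184 the Pi16 limit, and a cell could miss several.

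The study asked how ovarian hormones shape the mammary gland in a mouse model of the menopausal transition. All 12 groups were female C57BL/6J mice of 43 weeks, whose inguinal mammary glands were dissociated, and each group was 1 library. The number of animals pooled in a library was not given in the sources used here, so p-values below measure only the spread between libraries. Every group but Intact received 4-vinylcyclohexene diepoxide (VCD), which destroys small ovarian follicles, at 160 mg/kg/day for 15 days. VCD_Vehicle and VCD_Vehicle_NormEnv had no hormone and no polybrominated diphenyl ether (PBDE), and what NormEnv stands for was not stated. VCD_E2 received 17β-estradiol (E2) at 1 µg per animal per day for 1 week, VCD_E2_P4 received E2 with progesterone (P4) at 1 mg per animal per day, and VCD_E2_ICI received E2 with 5 mg per animal of ICI (fulvestrant), a degrader of the estrogen receptor. A study diet was recorded as starting 100 days after VCD in every group but Intact, including the groups without PBDE. The 6 groups with Low or High in their names ate polybrominated diphenyl ethers (PBDEs), flame retardants that persist in fat. The low dose (PBDE-47 at 0.05, PBDE-100 at 0.0028 and PBDE-153 at 0.0063 mg/kg/day) was fed for 20 weeks and the high dose (1, 0.056 and 0.126 mg/kg/day) for 1 week, so dose and duration cannot be told apart. VCD_Low_PBDE and VCD_High_PBDE had no hormone, VCD_Low_E2 and VCD_High_PBDE_E2 had E2, and VCD_Low_E2_P4 and VCD_High_PBDE_E2_P4 had E2 with P4.

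FABP4 is a small carrier protein that holds fatty acids inside cells, and its gene is switched on by the nuclear receptor PPARγ as fibroblast-like precursors take the path to fat cells. The stroma of the mammary gland holds precursors at several stages. Cells rich in Dpp4 and Pi16 lie in connective tissue and are regarded as early, multipotent progenitors, whereas cells with Pparg, Lpl and Cd36 are regarded as committed preadipocytes. Periostin, the product of Postn, is a matrix protein made where tissue is being remodelled.

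The label markers were high in these cells. Lpl (8:68880491-68907448, GRCm38), the lipase that frees fatty acids from lipoproteins, had a median of 3133 CPM (the gene's UMIs in a population of a library, scaled to 1000000 UMIs in all) in Fabp4 fibroblasts over the 12 libraries, with a range of 2587 to 4277, and a median of 911.4 (685.9 to 1365) in other fibroblasts. Cxcl14, a chemokine of fibroblasts, stood at 1112 CPM in all Fabp4 fibroblasts together and at 299.3 in the others, and Smoc2, a matrix-binding protein, at 976.0 and 313.9. The levels of Lpl, Cxcl14 and Smoc2 in each library are plotted beside those of Fabp4 (3:10204088-10208576), which the rule itself used. Because the cells were chosen on gene values, none of these differences from other fibroblasts was tested.

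**Figure D1:**
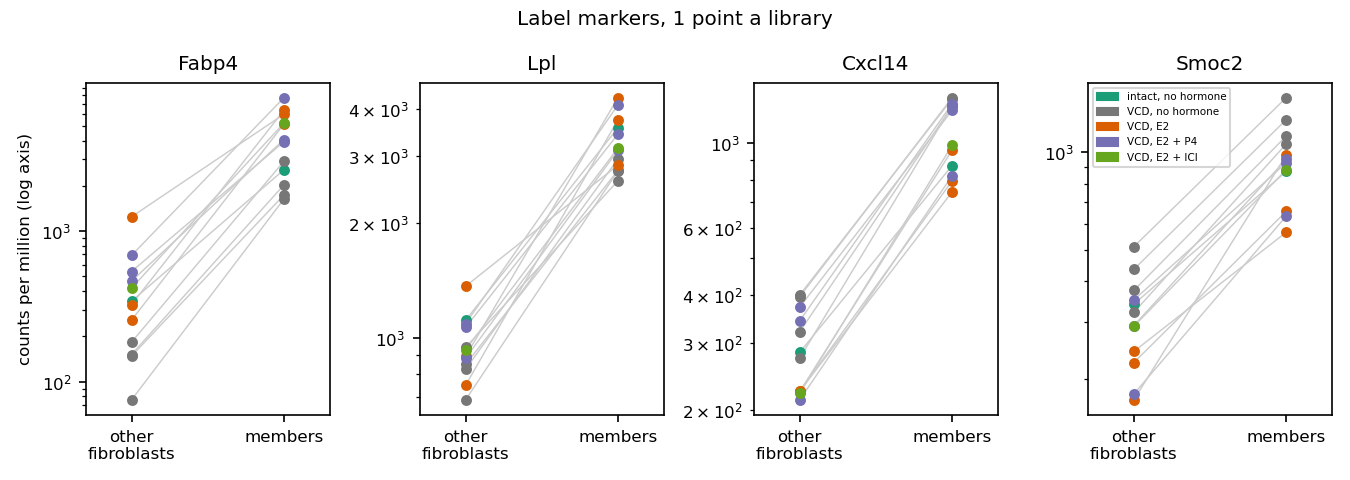
CPM (log axis) of the 4 label markers in Fabp4 fibroblasts (members) and other fibroblasts, with 1 point a library and a line joining the 2 values of a library. In each panel every line rises to the members, and the Lpl values of the members (2587 to 4277) lie above those of other fibroblasts (685.9 to 1365).

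Fabp4 fibroblasts differed most from other fibroblasts in Fabp4 itself, Cd300lg and Cldn15 on the high side and in Akr1c18, Pi16 and Il33 on the low side. After Fabp4, the largest median log2 ratios to other fibroblasts belonged to Cd300lg (3.399), a receptor of the CD300 family, Cldn15 (3.03), a claudin of tight junctions, Cd36 (3.00), the fatty acid translocase, and Olfm2 (2.95). Gm14964, Adgre5, H2-Q10, Epas1, Gsc, Idi1 and Ndufa4l2 completed the 12 highest, with Epas1, the oxygen-regulated factor HIF-2α, at 2.21. Cd300lg ranged from 44.89 to 162.6 CPM against 3.404 to 17.1 in other fibroblasts. The lowest were Akr1c18, an aldo-keto reductase that inactivates progesterone (-6.23), Pi16 (-5.72), Il33, an alarmin (-5.65), Dmkn, Smpd3, Aldh1a3, Ecscr and Tmem100, which were at or below 10.4 CPM in every library apart from the rule gene Pi16. Pi16-high fibroblasts, from which the rule parts these cells, had Akr1c18 at a median of 534.7 CPM. Among 2910 genes with a median of at least 50 CPM in either population, 176 were higher and 349 lower in Fabp4 fibroblasts with ranges that did not overlap over the 12 libraries.

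Pparg was more widely detected in Fabp4 fibroblasts than in other fibroblasts, and markers of finished fat cells were close to 0. After each cell was thinned to 5000 UMIs, Pparg was seen in 29.1% of Fabp4 fibroblasts and 9.5% of other fibroblasts, and Dpp4 in 8.3% and 55.6%. Lpl was seen in 99.5%, 74.9% and, in immune cells, 29.8%, and Smoc2 in 87.6%, 45.7% and 3.86% (median depths before thinning 16166, 17036 and 7034.5 UMIs, with 103, 2158 and 1691 shallower cells left out). Of the 10 mature adipocyte markers, Adipoq, which encodes adiponectin, had 4 UMIs in 4795 cells, Cidec, which fuses lipid droplets, had 4, and Plin1, a coat protein of lipid droplets, had 15. The summed level of these markers was 0.447 to 2.97 CPM per library. Endothelial cells also express Fabp4 and Cd36. The endothelial list summed to 0.905 to 9.57 CPM, and its defining gene Cdh5 had 10 UMIs. The pericyte and smooth muscle list was higher, at 125.7 to 272.5 CPM against 42.4 to 95.3 CPM in other fibroblasts. Most of it was Ndufa4l2 (161.5 against 36.5 CPM) and Notch3 (34.4 against 7.38). Kcnj8 (0.681 against 5.15), Abcc9 (11.5 against 13.3) and Mcam (0.240 against 0.391) of that list were lower.

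Cells just inside and just outside the limits had similar levels. The 323 kept cells with 10 or 11 Fabp4 UMIs had Lpl at 2454 CPM and Pparg at 64.5 CPM, and the 380 cells with 8 or 9 that met the other limits had 2220 and 55.7. The 133 kept cells with 25 to 29 Postn UMIs had Lpl at 3667 CPM and the 104 with 30 to 34 had 3856. Cells without any Fabp4 UMI that met the other limits were further away, with Lpl at 961.3 CPM and Pparg at 25.6 CPM in 5337 cells.

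The libraries held 41737881 to 109224969 UMIs, and the median Fabp4 fibroblast had 14732 to 20444 UMIs, 3486 to 4189.5 genes and 2.72 to 3.70% mitochondrial UMIs. VCD_High_PBDE_E2_P4 had 59 Fabp4 fibroblasts, the lowest summed depth of all, and the other libraries had 262 to 706. Pairs of libraries shared 1785 barcodes summed over 66 pairs, of which 3 were Fabp4 fibroblasts in both. The pairs among Intact, VCD_Vehicle, VCD_Low_PBDE, VCD_E2 and VCD_E2_P4 shared 95 to 185 barcodes each, VCD_Low_E2 and VCD_Low_E2_P4 shared 84, the pairs among VCD_Vehicle_NormEnv, VCD_High_PBDE and VCD_E2_ICI shared 27 to 35, and the remaining pairs shared 1 to 20. Cells that passed the filters in both libraries numbered 0 to 15 a pair. Library names ended in 1 of 2 suffixes of unstated meaning: Intact, VCD_Vehicle, VCD_E2, VCD_E2_P4 and VCD_Low_PBDE had one, which were the 5 that shared most barcodes, and the other 7 libraries had the other. Both suffixes held libraries with and without hormone, but all 3 high-dose libraries had the suffix of the 7. In the 9 libraries compared below, the suffix varied within a PBDE level only at the low dose, so a suffix term rests on VCD_Low_PBDE against VCD_Low_E2 and VCD_Low_E2_P4. Marker lists of immune cells (31.9 to 192 CPM) and skeletal muscle (21.2 to 366 CPM) were both highest in VCD_Low_E2_P4.

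The share of fibroblasts that were Fabp4 fibroblasts was 16.2% in VCD_Vehicle, 19.7% in VCD_Low_PBDE and 18.04% in VCD_High_PBDE. With E2 alone it was 20.3% (VCD_E2), 14.0% (VCD_Low_E2) and 12.9% (VCD_High_PBDE_E2), and with E2 and P4 it was 9.00% (VCD_E2_P4), 10.1% (VCD_Low_E2_P4) and 3.94% (VCD_High_PBDE_E2_P4, exact 95% interval 3.02 to 5.06). The 3 libraries with P4 were lower than the other 9 only once the limits on other genes, Postn among them, were applied. Fibroblasts with 10 or more Fabp4 UMIs made up 21.2% (VCD_E2_P4), 18.8% (VCD_Low_E2_P4) and 15.3% (VCD_High_PBDE_E2_P4) of fibroblasts with P4 and 13.95 to 32.2% in the other 9, so before those limits the groups overlapped. Intact had 12.3%, VCD_Vehicle_NormEnv 12.6% and VCD_E2_ICI the highest share, 22.4% (20.6 to 24.3). These shares rest on limits in raw UMIs of genes that differed with hormone, so they are given as descriptions. Among fibroblasts with 10 or more Fabp4 UMIs, the part removed by the Postn limit was 5.65 to 7.86% in VCD_Vehicle, VCD_Low_PBDE and VCD_High_PBDE and 13.7 to 64.2% in the 6 libraries with E2 or E2 and P4. It was 3.23% in VCD_Vehicle_NormEnv, 12.9% in VCD_E2_ICI and 27.7% in Intact. The median Fabp4 count per chosen cell was 22 to 35 UMIs without hormone and 43.5 to 94 with hormone. The part of these choices in the hormone comparisons below was not tested beyond the alternatives named there.

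**Figure D2:**
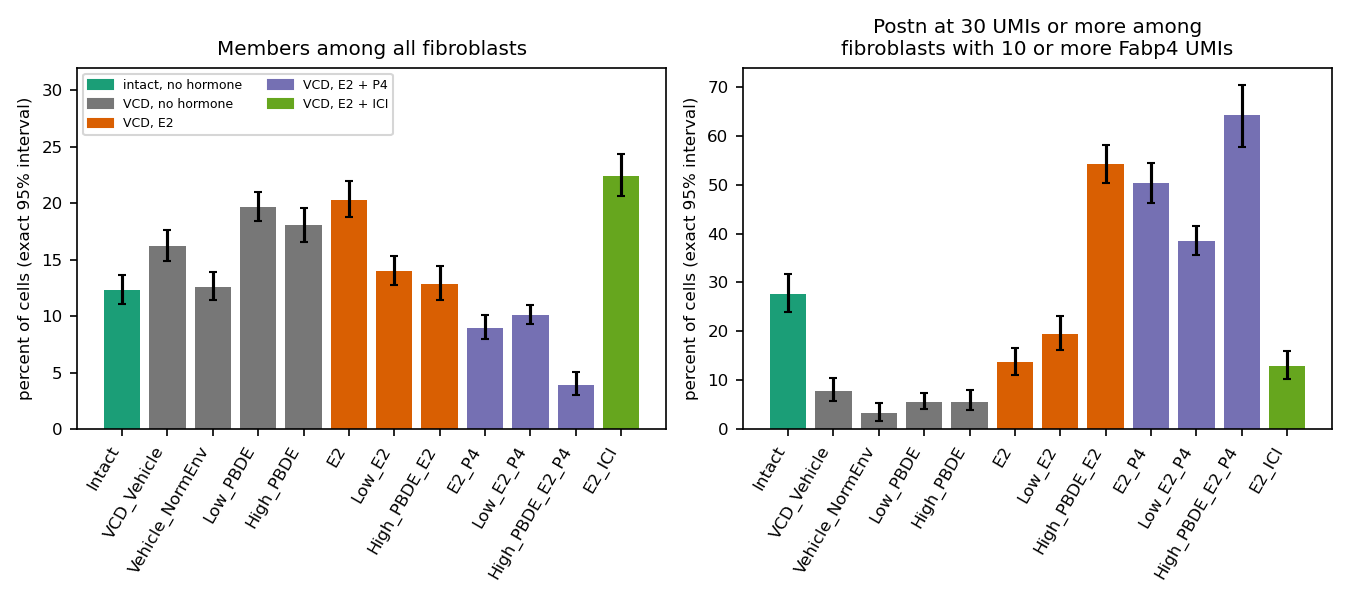
Left, percent of fibroblasts in each library that were Fabp4 fibroblasts (members). Right, percent of fibroblasts with 10 or more Fabp4 UMIs that had 30 or more Postn UMIs; bars are percents, lines are exact 95% Clopper-Pearson intervals that cover counting error only, and the libraries with E2 and P4 have the lowest shares on the left (3.94 to 10.1%).

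To ask what hormone changed in these cells, the UMIs of Fabp4 fibroblasts were summed in each library and the 6 VCD libraries with E2 or E2 and P4 were compared with the 3 without (VCD_Vehicle, VCD_Low_PBDE, VCD_High_PBDE), with PBDE level as a covariate. Among 11649 genes tested, 245 passed (2.10%): 153 were higher with hormone (1.31%) and 92 lower (0.790%) at an adjusted p under 0.05 in edgeR's quasi-likelihood test with Benjamini-Hochberg adjustment. Cd36 and Plin2 of lipid handling and 8 interferon-induced genes were among those raised, and the matrix genes Mgp and Fbln1 among those lowered. Genes of the rule were tested with the rest, and of them Fabp4 alone passed, among the raised genes. Leaving out Fabp4 itself, 118 of 152 raised genes had all 6 hormone libraries above the 3 without (4.46% of all genes tested did), and 59 of 92 lowered genes had all 6 below (2.45%). The count fell to 35 without VCD_Low_PBDE, 74 without VCD_Low_E2, 97 without VCD_Vehicle, 102 without VCD_Low_E2_P4, 117 without VCD_E2_P4 and 126 without VCD_E2. It was also 35 with the suffix as a term, which for hormone amounts to leaving out VCD_Low_PBDE and is no separate check. It was 1483 when the Postn limit was dropped, with 224 of the 245 among them.

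Several genes of lipid uptake and storage rose with hormone. Cd36 (5:17781690-17888801) stood at 23.8, 71.6 and 72.6 CPM in VCD_Vehicle, VCD_Low_PBDE and VCD_High_PBDE. With hormone its lowest value was 146.7 CPM, its median 180.0 and its highest 531.6, so the groups did not overlap. The difference was 2.04 on the log2 scale (SE 0.39, adjusted p = 0.0299, edgeR), and the share of cells with a Cd36 UMI was 13.5 to 35.4% in the 3 libraries without hormone and 46.8 to 79.7% in the 6 with. Plin2 (4:86648386-86670060), which coats lipid droplets, was at 320.1, 534.5 and 406.8 CPM without hormone and at 508.6 to 1517 (median 915.1) with it, a difference of 1.05 (SE 0.19, adjusted p = 0.0251, edgeR) with an overlap between VCD_Low_PBDE and VCD_E2_P4. Fabp5, the epidermal relative of Fabp4, was at 37.0, 39.8 and 33.5 CPM and at 57.5 to 83.3 with hormone, without overlap, a difference of 0.90 (SE 0.11, adjusted p = 0.00823, edgeR). Scd1, which desaturates fatty acids (0.61), Nr1h3, the oxysterol receptor LXRα (0.54), and Retsat, a retinol saturase of adipocytes (1.05), also passed.

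Most of the remaining genes of the lipid programme did not pass, and of all 11649 genes tested 2.10% did. Of 22 tested genes of lipid uptake and storage, 3 rose (Cd36, Fabp5, Plin2) and 1 fell (Apod, a lipocalin that binds small lipids, -0.97), with a median log2 difference of 0.06 against -0.003 for all genes. Of 16 adipogenic transcription factors, Nr1h3 rose and Klf2 (-0.74) and Klf4 (-0.57) fell. Pparg was 0.22 higher (adjusted p = 0.304, edgeR) and Cebpa, its partner in fat-cell formation, 0.20 lower in log2 (-0.20, adjusted p = 0.323, edgeR). Lpl was at 2587, 2749 and 2951 CPM without hormone and 2844 to 4277 with it, a difference of 0.37 that did not pass (SE 0.14, adjusted p = 0.228, edgeR). Cxcl14 (-0.43, adjusted p = 0.0641, edgeR) and Smoc2 (-0.56, adjusted p = 0.129, edgeR) did not pass either. Of 17 committed preadipocyte genes 2 rose (Ggt5, Cd36) and 1 fell (Bgn), of 12 Dpp4 progenitor genes 1 rose (Fn1), of 14 fatty acid synthesis genes 1 rose (Scd1), and of 21 cholesterol genes none passed. Of the 14 fatty acid synthesis genes, however, 13 had a positive difference and 1 a negative one. Their median was 0.23 (0.17 with the library suffix as a term).

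Of the 39 interferon-induced genes tested, 8 rose and none fell, beside 1.31% raised among all genes tested. Of the 39, 34 had a positive difference and 5 a negative one, and the median was 0.38 (0.23 with the library suffix as a term, where 1 passed). The list summed to 1135 to 1985 CPM without hormone and 1814 to 2626 with it, which overlapped. In Pi16-high fibroblasts the sums were 2320 to 3975 and 4922 to 8870 CPM, without overlap. For the Gdf10 fibroblasts defined below they were 1583 to 2618 and 3045 to 6259, also without overlap. For the Postn-high cells defined below they were 1136 to 2743 and 1418 to 2016, which overlapped. Ifit3, an antiviral protein, was at 20.8, 16.8 and 10.7 CPM in the 3 libraries without hormone and had a lowest value of 14.9, a median of 44.3 and a highest of 64.2 with hormone. Only VCD_High_PBDE_E2_P4, the library of 59 cells, overlapped the libraries without hormone. Ifit3 differed by 1.43 (SE 0.28, adjusted p = 0.0321, edgeR), and its reads may be split with the near-identical Ifit3b. Rsad2 (2.44), Zbp1, a sensor of nucleic acids (0.97), Irf7 (0.88), Ifi27l2a (0.87), Oasl2 (0.59) and Cxcl9 were also among the 8. Irf7, a factor that amplifies interferon output, was at 33.0, 20.0 and 17.6 CPM without hormone and at 34.7 to 54.5 with it, without overlap. Immune markers were at 31.9 to 192 CPM in sum, 8 of 8 tested had a positive difference and none passed, and their part in these results was not tested.

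A few cells carried much of this signal for some genes. Cxcl9, a T-cell attractant induced by interferon gamma, was at 5.92, 5.71 and 2.38 CPM without hormone and at 4.95 to 95.1 (median 22.7) with it, a difference of 2.79 (SE 0.32, adjusted p = 0.00667, edgeR). In VCD_E2 a single cell held 71.3% of all Cxcl9 UMIs, and in VCD_Low_E2_P4 a single cell held 37.8%. The share of Fabp4 fibroblasts with a Cxcl9 UMI was 2.01 to 4.25% in the 3 libraries without hormone and 5.09 to 22.0% in the 6 with. Outside this comparison VCD_Vehicle_NormEnv had 41.5 CPM, of which 1 cell held 60.7%, and 5.23% of its cells and 5.42% of the cells of Intact had a Cxcl9 UMI, inside the range with hormone. For Rsad2, 1 cell of VCD_High_PBDE_E2 held 71.4% of the UMIs, and for Ifit3 1 cell of that library held 39.9%.

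Interferon-stimulated response elements, the sequences through which interferon switches on its target genes, were looked for in RefSeq promoters (GRCm38.p6, 250 bases before to 50 after the gene start) as GAAA, any 2 bases and GAAA, on either strand. They were present in 18 of 30 interferon-list promoters that were found (60%) and in 1079 of 27025 promoters in all (3.99%), in 4 of 111 promoters of genes raised with hormone (3.6%) and in 6 of 65 promoters of genes lowered with it (9.23%). Those of the leading genes Ifit3 and Rsad2 are shown, in gene orientation, with the matched letters in capitals.
Ifit3 (chr19:34583353-34583402, + strand): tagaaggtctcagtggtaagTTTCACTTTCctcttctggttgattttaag
Ifit3 (chr19:34583387-34583436, + strand): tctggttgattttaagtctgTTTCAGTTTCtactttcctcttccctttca
Rsad2 (chr12:26456543-26456592, - strand): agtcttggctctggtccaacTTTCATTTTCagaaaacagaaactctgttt

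Matrix genes split in direction. Mgp (6:136872435-136875823), the matrix Gla protein that blocks calcification, was at 980.3, 951.0 and 424.8 CPM without hormone and at 98.7 to 329.6 (median 188.9) with it, without overlap. It fell by 2.02 on the log2 scale (SE 0.31, adjusted p = 0.0139, edgeR). Fbln1 (15:85205949-85286535), a fibulin of elastic fibres, was at 339.6, 245.7 and 157.8 CPM without hormone and at 30.4 to 89.1 (median 55.6) with it, also without overlap, and fell by 2.20 (SE 0.29, adjusted p = 0.00823, edgeR). Fbln1 was spread over cells, with a UMI in 67.3 to 88.2% of cells without hormone and 34.5 to 42.4% with, whereas the top 10% of cells held 71.1 to 94.0% of the Mgp UMIs in every library. Podn, a small leucine-rich proteoglycan, was at 181.7, 170.8 and 165.4 CPM and at 77.3 to 108.8 with hormone, and fell by 0.92 (SE 0.10, adjusted p = 0.0042, edgeR). Eln, elastin itself (-0.94), and Bgn, biglycan (-0.55), fell too.

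Of 26 tested matrix glycoproteins and proteoglycans, 5 thus fell and 3 rose, and the list median was -0.12. With the suffix as a term 3 fell and 0 rose, and Mgp did not pass (-1.56, adjusted p = 0.0976, edgeR). The 3 that rose were Fmod, fibromodulin (1.70), Emilin1, an elastic fibre glycoprotein (1.04), and Fn1, fibronectin (0.76). Fn1 was at 183.8, 165.3 and 122.0 CPM without hormone and at 206.0 to 393.6 with it, without overlap. Among 11 fibrillar and related collagens only Col14a1 passed (-0.80). The rule used Col1a1, Col1a2 and Col3a1, so these are given as values only, and Col3a1 was outside that list. Without and with hormone Col1a1 was at 3856 to 4941 and 3218 to 5596 CPM. Col1a2 was at 4722 to 5581 and 4437 to 7407 CPM, and Col3a1 at 9934 to 13341 and 8708 to 15301 CPM. Among 16 basement membrane genes Col18a1 rose (0.50) and Lamb2 fell (-0.51), and among 21 genes of collagen folding and cross-linking Pcolce2 fell (-0.63). Tgfbi, a TGF-β-induced matrix protein, was at 227.9, 356.9 and 447.6 CPM without hormone and 121.7 to 157.3 with it and fell by 1.28 (SE 0.17, adjusted p = 0.00823, edgeR). Nox4, an oxidase that makes hydrogen peroxide (-1.18), and Itgbl1 (-1.04) fell with it.

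Several secreted and surface proteins completed the leading genes. Spon1 (7:113765998-114043370), F-spondin, was at 23.4, 12.8 and 7.75 CPM without hormone and at 33.1 to 91.3 (median 65.7) with it, without overlap, a difference of 2.16 (SE 0.25, adjusted p = 0.00667, edgeR). Sdc1 (12:8771323-8793715), the heparan sulfate carrier syndecan-1, was at 16.9, 15.7 and 19.4 CPM and at 38.6 to 110.9 (median 51.4), a difference of 1.73 (SE 0.18, adjusted p = 0.0042, edgeR). Lypd1 (1.66), Cxcl13, which attracts B cells (1.35), Ttyh2 (1.29), Nxn, a redox protein (1.25), Plac8 (1.12), Mmp19, a metalloproteinase (1.09), and Cxcl16, a membrane chemokine (1.08), were the other raised genes. The lowered genes also held Ppl, periplakin (-1.39), Pcsk6, a proprotein convertase (-0.97), Penk, proenkephalin (-0.92), and Inmt, a methyltransferase (-0.90). In the heat map of these 24 genes, which were chosen for this difference, the hormone libraries overlap those without for Cxcl9, Ifit3, Cxcl13, Ttyh2, Penk and Inmt.

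**Figure D3:**
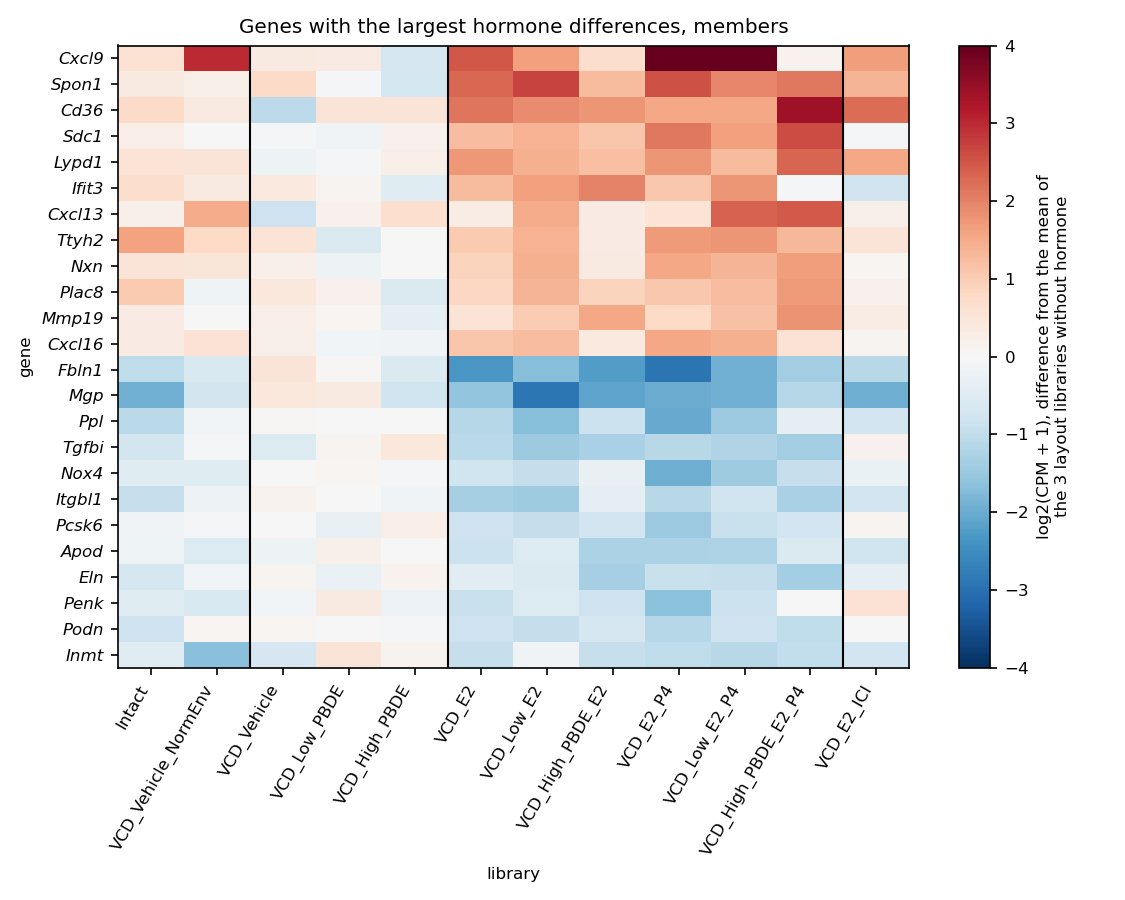
Log2(CPM + 1) of the 12 raised and 12 lowered genes named by rule, as the difference from the mean of VCD_Vehicle, VCD_Low_PBDE and VCD_High_PBDE, in Fabp4 fibroblasts (members) of each library. The hormone libraries are mostly red in the upper genes and blue in the lower ones (Ifit3 in VCD_High_PBDE_E2_P4, 14.9 CPM, is not red), with Cd36 highest in VCD_High_PBDE_E2_P4 (531.6 CPM) and Cxcl9 strong in VCD_E2_P4 (85.1 CPM); the scale stops at 4 and -4.

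Among secreted growth factors, Fgf10, Figf and Tgfb2 rose. Fgf10, a ligand that epithelium needs to branch, was at 23.6, 33.7 and 43.8 CPM without hormone and at 48.8 to 81.2 with it, without overlap, a difference of 0.83 (SE 0.13, adjusted p = 0.0158, edgeR). Figf, the lymphatic growth factor VEGF-D, rose by 0.73 (SE 0.14, adjusted p = 0.0321, edgeR) with values of 29.6, 38.8 and 66.6 CPM against 59.1 to 83.4, which overlapped. Tgfb2, a TGF-β ligand, rose by 1.07 and Wnt11 fell (-0.65). Of 30 growth factors tested 3 rose and 1 fell, with a median of -0.05, and none of the 30 passed with the suffix as a term (edgeR). Igf1 (-0.45, adjusted p = 0.524, edgeR) and Hgf (0.35, adjusted p = 0.445, edgeR) did not pass.

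Most genes of the steroid receptor lists did not pass, beside 2.10% that passed among all genes tested. Of 18 estrogen receptor targets 1 fell (Stc2, -1.17) and none rose, with a median of -0.19, and of 25 hormone and growth factor receptors none passed. Esr1, the estrogen receptor α, was at 54.5, 46.2 and 49.2 CPM without hormone and at 24.3 to 50.7 with it (-0.50, adjusted p = 0.117, edgeR). Pgr, the progesterone receptor, was at 0 to 5.99 CPM over the 12 libraries and was not among the genes tested. Greb1, a classical estrogen target, differed by -0.18 (adjusted p = 0.80, edgeR). Of 29 immediate early and heat shock genes, which tissue dissociation can induce, 24 had a negative difference (median -0.24), and Atf3 (-0.75) and Socs3 (-0.49) fell. Klf2 and Klf4, read above among transcription factors, are also immediate early genes.

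In the remaining lists most genes did not pass, beside 2.10% that passed among all genes tested. Among 24 genes of endoplasmic reticulum stress and secretion Sec61b rose (0.40), among 23 chemokines and cytokines Cxcl9 and Cxcl13 rose, and among 21 genes of xenobiotic and oxidative response Cat rose (0.57) and Gstm1 fell (-0.42). None of 15 progesterone and glucocorticoid targets (14 of 15 negative, median -0.20) or of 10 contractile genes passed. Mcm5, which licenses DNA replication, was the single call among 16 cell cycle genes, all of which had a positive difference. Among the 10 fibroblast markers Serpinf1 fell, and among the Schwann cell markers tested Mbp fell.

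E2 alone gave a smaller count. Against the same 3 libraries, the 3 with E2 and no P4 gave 18 genes (0.155%, edgeR), 13 raised (0.112%) and 5 lowered (0.0429%). Libraries outside the comparison were placed by the log2 level of each called gene, nearer to the mean with hormone or nearer to the mean without. VCD_E2_ICI was nearer to the hormone mean for 44 of 152 raised genes (28.9%) and 40 of 92 lowered genes (43.5%). For VCD_Vehicle_NormEnv these were 46 (30.3%) and 26 (28.3%), and for Intact 45 (29.6%) and 53 (57.6%). In VCD_E2_ICI Cd36 was 240.7 CPM (exact Poisson interval 229.0 to 252.8), inside the range of the hormone libraries, whereas Sdc1 (16.5 CPM) was inside the range of the libraries without hormone. Of the 24 leading genes, 9 were inside the hormone range only (Cxcl9, Spon1, Cd36, Lypd1, Mgp, Ppl, Itgbl1, Apod and Inmt), 8 inside the range without hormone only (Sdc1, Cxcl13, Nxn, Plac8, Cxcl16, Tgfbi, Pcsk6 and Podn), 1 inside both and 6 inside neither. These are 1 library each, with no replicate check.

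The next question was whether hormone differences in Fabp4 fibroblasts differed from those in neighbouring populations of the same libraries, with a test of the difference itself in a model with the library as a block. Genes of the rule, which part the populations, were not left out of these tests, so the counts may hold some of them. Against 11154 Pi16-high fibroblasts (Pi16 at 20 UMIs or more, Fabp4 under 10), 314 of 13146 genes differed (2.39%, edgeR), 90 more positive (0.685%) and 224 more negative (1.70%) in Fabp4 fibroblasts. Mgp went from a mean of 785.4 to 203.1 CPM in Fabp4 fibroblasts and from 39.9 to 148.3 CPM in Pi16-high fibroblasts (difference of log2 changes -3.71, SE 0.71, adjusted p = 0.0288, edgeR). Fbln1 went from 247.7 to 58.0 CPM and from 461.6 to 597.3 CPM (-2.47, SE 0.27, adjusted p = 0.00325, edgeR). Crispld1, a secreted cysteine-rich protein, went from 1.86 to 11.4 CPM and from 119.3 to 80.0 CPM (3.08, SE 0.23, adjusted p = 0.000485, edgeR), so it stayed lower in Fabp4 fibroblasts than in the progenitors. Tgfb2 (1.44) and Ptgs1, the cyclooxygenase COX-1 (1.41), also differed upward. The count was 23 without VCD_Low_PBDE and 145 to 178 without VCD_High_PBDE_E2_P4, VCD_Low_E2_P4, VCD_Low_E2 or VCD_E2_P4.

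The nearest population was the 1689 fibroblasts with 10 or more Fabp4 UMIs, 30 or more Postn UMIs and Pi16 under 20. Here 428 of 12343 genes differed in their hormone change (3.47%, edgeR), 259 more positive (2.10%) and 169 more negative (1.37%) in Fabp4 fibroblasts. Before the Pi16 limit the Postn-high cells numbered only 44 in VCD_Vehicle, 48 in VCD_Low_PBDE and 30 in VCD_High_PBDE. In the libraries with hormone they numbered 90 to 396. In VCD_High_PBDE their immune markers summed to 267.5 CPM, against 30.1 to 64.4 CPM in the other libraries compared, and the part of this was not tested. Wisp2, a CCN-family matrix protein, went from 114.5 to 79.9 CPM in Fabp4 fibroblasts and from 88.6 to 7.38 CPM in the Postn-high cells (3.08, SE 0.23, adjusted p = 2.56e-07, edgeR). Cyp26b1, which degrades retinoic acid, went from 110.7 to 91.2 and from 54.5 to 9.29 CPM (2.37, SE 0.22, adjusted p = 2.9e-06, edgeR). Lypd1 went from 14.5 to 48.4 CPM in Fabp4 fibroblasts and from 25.2 to 9.55 CPM in the Postn-high cells. Ntf3, a neurotrophin, went from 75.9 to 66.4 CPM and from 50.5 to 11.0 CPM, and Tnfsf9, a ligand of T-cell costimulation, from 56.6 to 62.1 CPM and from 79.3 to 25.8 CPM. Without VCD_Vehicle the count was 222, without VCD_Low_PBDE 234 and without VCD_High_PBDE 273. Postn parts these populations by rule and differed with hormone, so what was sorted into each also differed between libraries. The limits on Tnc and Gdf10 part them too, because they were set for Fabp4 fibroblasts and not for the Postn-high cells.

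Against 2994 Gdf10 fibroblasts (Gdf10 at 3 UMIs or more, Fabp4 under 10, Pi16 under 20), 103 of 11975 genes differed (0.860%, edgeR), 33 more positive (0.276%) and 70 more negative (0.585%). Cxcl13 went from 12.9 to 36.0 CPM in Fabp4 fibroblasts and from 157.1 to 74.2 CPM in Gdf10 fibroblasts (2.36, SE 0.28, adjusted p = 0.000559, edgeR). Cd300lg (1.87), Plin4, a lipid droplet protein (1.85), and Gsc, a homeobox factor (1.38), differed upward, and Sfrp2, a Wnt inhibitor (-1.79), Fbln1 (-1.37) and Mgp (-1.29) downward. The count was 35 without VCD_Vehicle, 36 without VCD_Low_PBDE, 47 without VCD_E2 and 237 without VCD_High_PBDE_E2. Hemoglobin genes also passed in all 3 comparisons, and in VCD_Low_PBDE, a library of these comparisons, 1 Fabp4 fibroblast held 96.9% of the Hba-a2 UMIs.

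**Figure D4:**
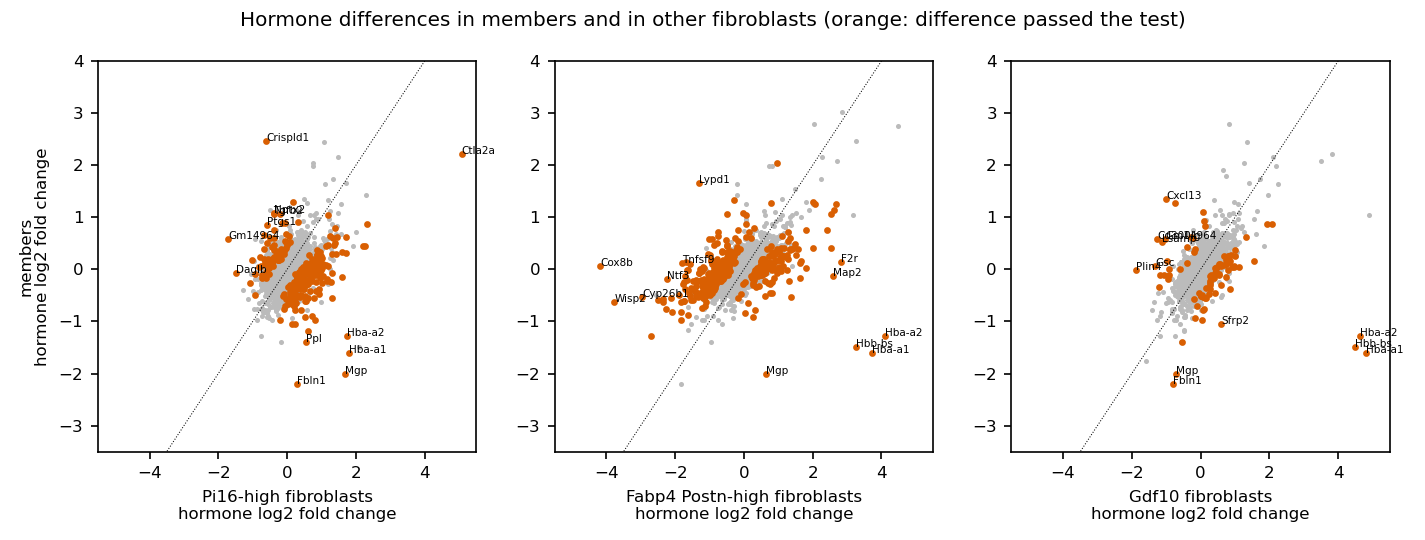
Log2 hormone change of tested genes in Fabp4 fibroblasts (members, vertical axis) against that in 3 other fibroblast populations (horizontal axis). The genes shown averaged at least 20 CPM over both populations and had a fitted change in each. Orange points passed the test of the difference and the dotted line marks equal change. Mgp lies below the line in all 3 panels, and Crispld1 (2.47 in members) stands above it in the left panel.

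Progesterone added to E2 was compared with E2 alone. Against the 3 libraries with E2 alone, 6 of 11649 genes passed (0.0515%, edgeR), 5 raised (0.0429%) and 1 lowered (0.00858%). Of the raised genes, Hist1h2ap (6.57), 2810417H13Rik (4.71), Top2a (4.46) and Tk1 (3.26), are histone genes or serve DNA replication and chromosome segregation, and Crispld1 (1.39, adjusted p = 0.0328, edgeR) was the fifth. They rested on few cells: Top2a had a UMI in 1.70 to 2.71% of cells in the P4 libraries and in at most 0.57% elsewhere, and 1 cell of VCD_E2_P4 held 96.9% of its Hist1h2ap UMIs. Mbd1, a reader of methylated DNA, was at 38.9, 46.1 and 47.3 CPM with E2 and at 20.5, 20.8 and 15.8 CPM with P4, without overlap (-1.12, SE 0.14, adjusted p = 0.0269, edgeR). Immune markers (8 of 8 positive, median 1.49) and skeletal muscle markers (3 of 3, median 2.02) had positive differences with P4 and no call, Top2a was seen in 10.51% of thinned immune cells, and the part of these cells was not tested. The count was 0 without VCD_Low_E2_P4, 2 without VCD_E2 or VCD_Low_E2, and 3 without VCD_Low_PBDE or VCD_High_PBDE_E2. It was 125 without the Postn limit, with 2 of the 6 among them, 85 without the filter on low counts and 0 with limits scaled by depth. All 21 cholesterol genes had a positive difference with P4 (median 0.29), and none passed.

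PBDE feeding was compared with no PBDE at each dose, with hormone as a covariate; both doses share the same 3 libraries without PBDE. At the low dose 1 of 11649 genes passed (0.00858%, edgeR): Hbb-bt, a hemoglobin gene, for which 1 cell of VCD_Low_PBDE held 98.4% of the UMIs of that library. Hbb-bt was at 40.2 CPM in VCD_Low_PBDE, 117.1 in VCD_Low_E2 and 98.9 in VCD_Low_E2_P4. It was at 3.03 CPM in VCD_Vehicle, 4.59 in VCD_E2 and 1.63 in VCD_E2_P4, but at 77.5 in VCD_E2_ICI, which had no PBDE. At the high dose 34 passed (0.292%, edgeR), 4 raised (0.0343%) and 30 lowered (0.258%). The cholesterol synthesis list held 5 of the 30, among them Hmgcs1, which makes HMG-CoA, and Idi1, Sqle and Cyp51 of later steps. The chemokine Cxcl1 (-0.98) and the cytokine Il6 (-1.31) were lowered as well, and Mmp11, a metalloproteinase (1.36), Irf2bp2 (0.66), Sepp1, the selenium carrier (0.65), and Ppargc1a, a coactivator of mitochondrial genes (1.67), were raised. AY036118 (-2.74), Gm42418 (-2.07), Gm10073 (-2.08), Lars2 (-1.46), Nme2 (-1.31) and Clec11a (-1.06) led the lowered genes. AY036118 (17:39847113-39848035, - strand) lies within the span of Gm42418 (17:39846958-39848788, + strand), so they share a locus. The 3 high-dose libraries and the 3 without PBDE differed in library suffix too, and 4 further libraries had the high-dose suffix without the high dose, of which VCD_Low_E2 and VCD_Low_E2_P4 were in the fit. Gm42418 was at 836.9, 635.6 and 568.2 CPM at the high dose, and in these libraries at 837.0 (VCD_E2_ICI), 1852 (VCD_Vehicle_NormEnv), 2345 (VCD_Low_E2) and 2549 CPM (VCD_Low_E2_P4). Sepp1 was at 1619, 1641 and 1550 CPM at the high dose and at 1658, 1163, 942.6 and 1118 CPM in the same 4. AY036118 was at 45.8, 34.4 and 19.8 CPM at the high dose and at 38.5, 86.4, 220.0 and 97.1 CPM in the 4. For these genes VCD_E2_ICI, which had no PBDE, stood at or near the high-dose levels and the other 3 libraries did not. Lars2 (45.9 CPM), Gm10073 (12.99 CPM) and Nme2 (24.5 CPM) in VCD_E2_ICI were also in or near the high-dose range, and in the other 3 they were at 99.6 to 124.0, 36.4 to 65.7 and 40.4 to 49.4 CPM. Irf2bp2 was in or near that range in both VCD_E2_ICI (58.3 CPM) and VCD_Vehicle_NormEnv (61.6 CPM). Il6 in VCD_E2_ICI (19.8 CPM) was inside the high-dose range of 12.2 to 29.7 CPM and below the 22.1 to 54.5 CPM of the 3 libraries without PBDE. Mmp11 was at 84.0 CPM there, between 40.7 to 47.4 CPM without PBDE and 92.1 to 159.3 CPM at the high dose. In VCD_E2_ICI Cxcl1 (1929 CPM), Hmgcs1 (517.5 CPM), Sqle (110.2 CPM) and Cyp51 (136.1 CPM) were inside the range without PBDE. With the suffix as a term, which rests on VCD_Low_PBDE, 14 genes passed, 1 of them among the 34, whereas 36 passed without that library, 24 of them among the 34. Leaving out 1 library gave 9 (VCD_Low_E2), 10 (VCD_High_PBDE_E2_P4), 11 (VCD_E2 or VCD_High_PBDE_E2), 14 (VCD_Vehicle or VCD_E2_P4) or 17 genes (VCD_Low_E2_P4).

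The summed level of cholesterol synthesis genes was lower in every library with PBDE than in every library without. The 21 genes of the list summed to 3329 CPM in Intact, 2178 in VCD_Vehicle, 2782 in VCD_Vehicle_NormEnv, 2013 in VCD_E2, 2349 in VCD_E2_P4 and 2659 in VCD_E2_ICI. With PBDE the sum was 1216 in VCD_Low_PBDE, 1770 in VCD_High_PBDE, 1300 in VCD_Low_E2, 1202 in VCD_High_PBDE_E2, 1662 in VCD_Low_E2_P4 and 1246 in VCD_High_PBDE_E2_P4. Both suffixes stood on both sides. By gene, 6 of the 21 (Hmgcs1, Idi1, Sqle, Cyp51, Msmo1 and Hsd17b7) had all 6 PBDE libraries below all 6 others, as had 10 of 11649 genes in all (0.0858%). At the low dose 20 of 21 differences were negative, with a median of -0.51, and at the high dose 18 of 21, with a median of -0.70 (-0.89 and 0 passed with the suffix as a term).

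**Figure D5:**
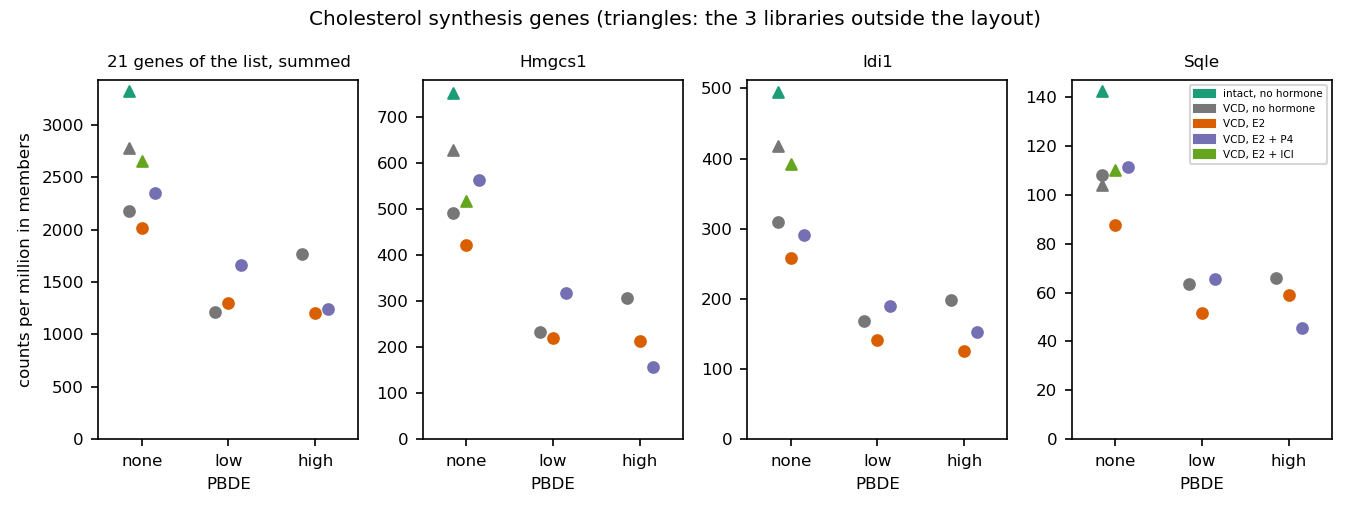
CPM in Fabp4 fibroblasts (members) by PBDE level, for the sum of the 21 cholesterol genes and for Hmgcs1, Idi1 and Sqle, with 1 point a library, coloured by hormone. The 6 points without PBDE (2013 to 3329 for the sum) lie above the 6 with PBDE (1202 to 1770) in each panel; triangles are Intact, VCD_Vehicle_NormEnv and VCD_E2_ICI.

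In a comparison added after these values were seen, both doses together were set against none in the 9 libraries. Of 11649 genes 3 passed (0.0258%, edgeR), and all 3 were lowered members of the list. Idi1 (13:8885501-8892451), which isomerises the isoprene unit, was at 310.3, 258.3 and 290.8 CPM without PBDE and at 125.7 to 198.8 CPM with it (-0.87, SE 0.10, adjusted p = 0.0241, edgeR). Sqle (15:59315077-59331192), squalene epoxidase, was at 108.2, 87.9 and 111.5 CPM and at 45.5 to 66.2 CPM (-0.83, SE 0.11, adjusted p = 0.0241, edgeR). Cyp51, which demethylates lanosterol, differed by -0.68 with the same adjusted p. Hmgcs1 (-1.07, adjusted p = 0.0965, edgeR) did not pass. No gene passed in edgeR without VCD_Vehicle, VCD_E2 or VCD_Low_PBDE, with the suffix as a term (257 at an unadjusted p under 0.05), without the Postn limit (559) or with limits scaled by depth (573), while 14 passed in DESeq2, 1 passed without VCD_E2_P4, 2 without VCD_Low_E2 or VCD_High_PBDE, 5 without VCD_High_PBDE_E2 and 6 without VCD_Low_E2_P4. The list median stayed between -0.41 and -0.62 in all of these.

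Within each library the sum of the list was lower in the other populations than in Fabp4 fibroblasts. It was 361.0 to 1229 CPM in other fibroblasts, 552.1 to 2433 in the Postn-high cells, 256.7 to 457.4 in Pi16-high fibroblasts and 289.0 to 808.4 in Gdf10 fibroblasts, against 1202 to 3329 in Fabp4 fibroblasts. Idi1, Cyp51 and Sqle were also negative in other fibroblasts in the comparison of either dose with none (-0.79, -0.66 and -0.78), where none passed. Whether PBDE differences in Fabp4 fibroblasts differ from those elsewhere was not tested.

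The sterol regulatory element, the sequence through which SREBP factors switch on these genes when sterols run low, was looked for as TCACNCCAC on either strand in the same RefSeq promoters. Of 15 list promoters found, 1 held it (6.67%), against 388 of 27025 in all (1.44%). That promoter was that of Hmgcs1 (13:119690379-119708260), with the largest PBDE difference of the 5 cholesterol genes lowered at the high dose, and the window is shown with the match in capitals.
Hmgcs1 (chr13:119690194-119690242, + strand): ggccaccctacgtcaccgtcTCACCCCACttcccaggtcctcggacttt
Hmgcs1 itself was at 491.4, 422.1 and 563.7 CPM without PBDE in VCD_Vehicle, VCD_E2 and VCD_E2_P4 and at 157.4 to 317.3 CPM in the 6 libraries with it, without overlap.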

How the data were processed

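Mammary cells were measured on Chromium v3 3' libraries, 12 in all. The deposited files hold raw UMI counts of each gene in each barcode, which the authors made with Cell Ranger 3.1.0 on mm10 per the submitters' processing notes (the labels name a HiSeq, the methods a NovaSeq). The files list 27998 genes and 58620 barcodes. Cells were chosen by the rule in the text, and the counts of chosen cells were summed per library. Comparisons used edgeR 4.0.16 (TMM, filterByExpr, glmQLFit and glmQLFTest) in R 4.3.3 on 9 libraries, hormone and PBDE additive, 4 residual degrees of freedom, with Benjamini-Hochberg adjustment over all genes tested; Intact, VCD_Vehicle_NormEnv and VCD_E2_ICI stayed out. The scripts were tested on simulated data. DESeq2 1.42.0 was an alternative. No doublets were removed from the main values; an alternative dropped 2 to 8.01% of cells per library. The members and gene lists were chosen with earlier results of these data known. Named genes were the 12 raised and 12 lowered with the largest difference among calls averaging 20 CPM or more and with the same direction at each PBDE level (8 each way for P4 and PBDE, 6 for differences between populations), besides markers and list genes. Ppargc1a, Retsat, the other calls of the P4 comparison and single-cell shares outside this rule were chosen after their values were seen. Sequences are RefSeq (GRCm38.p6) and positions GENCODE M21 on GRCm38. Thinning and simulated doublets used fixed random seeds. Some genes of the lists are not reported here by name.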

Additional observations from a re-analysis of the deposited data

Results flagged for a closer look

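The difference of hormone changes between Fabp4 fibroblasts and another fibroblast population of the same libraries passed edgeR's test of the difference for 314 genes against Pi16-high fibroblasts, 428 against the Postn-high cells and 103 against Gdf10 fibroblasts. The values below are the fitted differences, on the log2 scale, of the hormone change in Fabp4 fibroblasts from that in the other population.

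Against Pi16-high fibroblasts the change was more positive for Crispld1 (3.08), Gm14964 (2.23), Nptx2 (1.51), Tgfb2 (1.44), Ptgs1 (1.41) and Daglb (1.40). It was more negative for Hba-a1 (-5.78), Hba-a2 (-5.53), Mgp (-3.71), Ctla2a (-2.86), Fbln1 (-2.47) and Ppl (-2.01). Ctla2a went from 1.97 to 12.99 CPM in Fabp4 fibroblasts and from 6.63 to 384.2 CPM in Pi16-high fibroblasts. Daglb, an enzyme of endocannabinoid synthesis, went from 18.8 to 17.9 CPM in Fabp4 fibroblasts and went from 266.8 to 100.0 CPM in the others. For 2 of the genes 1 population was near the floor: Gm14964 went from 1.12 to 0.337 CPM in Pi16-high fibroblasts, and Nptx2 from 1.15 to 3.51 CPM in Fabp4 fibroblasts. The highest Nptx2 value, 9.90 CPM, was in VCD_High_PBDE_E2_P4, the library of 59 cells.

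Against the Postn-high cells the change was more positive for Cox8b (4.16), Wisp2 (3.08), Lypd1 (2.80), Cyp26b1 (2.37), Ntf3 (2.00) and Tnfsf9 (1.91), and more negative for Hba-a2 (-7.03), Hba-a1 (-6.72), Hbb-bs (-5.29), Mgp (-2.85), Map2 (-2.73) and F2r (-2.68). Cox8b, a respiratory chain subunit, went from 46.3 to 52.0 CPM in Fabp4 fibroblasts and went from 27.3 to 1.78 CPM in the Postn-high cells. F2r, the thrombin receptor, went from 9.94 to 10.8 CPM and went from 6.87 to 55.4 CPM there.

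Against Gdf10 fibroblasts the change was more positive for Cxcl13 (2.36), Cd300lg (1.87), Plin4 (1.85), Lsamp (1.68), Gm14964 (1.65) and Gsc (1.38). It was more negative for Hba-a1 (-8.05), Hba-a2 (-7.64), Hbb-bs (-6.15), Sfrp2 (-1.79), Fbln1 (-1.37) and Mgp (-1.29). The hemoglobin genes are RNA of red blood cells, and against Pi16-high fibroblasts their fitted differences are not borne out by the group means. There Hba-a1 went from 57.2 to 73.3 CPM in Fabp4 fibroblasts and from 80.7 to 103.6 CPM in the others. The separate fits gave log2 changes of -1.61 and 1.81, whose difference is smaller than the fitted one. In the other comparisons the mean of Hba-a1 rose more outside Fabp4 fibroblasts. It went from 2.73 to 108.2 CPM in Gdf10 fibroblasts and from 2.37 to 46.7 CPM in the Postn-high cells. In VCD_Low_PBDE 1 Fabp4 fibroblast held 96.3% of the Hba-a1 UMIs and 96.9% of the Hba-a2 UMIs.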

How the results depend on the processing

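No paired analysis was possible because each group was 1 library and the labels give no replicate numbers by which groups could be paired; differences between populations had the library as a block. For the hormone comparison (245 genes) alternatives gave 508 without a filter on low counts, 35 with the library suffix as a term, 443 with limits scaled by depth, 1483 without the Postn limit and 18 for E2 without P4; leaving out 1 library gave 35 to 323. For P4 (6) they gave 16 in the DESeq2 Wald test, 85 without the filter, 0 with scaled limits, 125 without the Postn limit, and 0 to 9 without 1 library. For low PBDE (1) they gave 13, 29, 5 with the suffix, 0 without the Postn limit, and 1 to 5; low counts reached 4 without VCD_Low_PBDE or VCD_High_PBDE_E2_P4, 3 without VCD_High_PBDE, 2 without VCD_E2_P4 and 5 without VCD_High_PBDE_E2. For high PBDE (34) they gave 152, 240, 14 with the suffix, and 9 to 36. Differences between populations gave 23 to 449 (Pi16-high), 222 to 451, 236 in DESeq2 and 664 unfiltered (Postn-high), and 35 to 237, 52 and 251 (Gdf10) without 1 library, in DESeq2 and unfiltered. PBDE at either dose (3; chosen after the data were seen) gave 0 with the suffix, without the Postn limit and with scaled limits, 14 in DESeq2, 169 unfiltered and 0 to 6 without 1 library. The share of Fabp4 fibroblasts (14.2%) was 15.1% with scaled limits and 17.7% without the Postn limit. None of the genes named by size of change reversed where refitted (list genes were not refitted): of 432 refits of the 24 hormone genes, 335 passed again and 97 did not, against 101 and 86 of 187 for the 11 high-dose genes and 11 and 6 of 17 for the P4 gene. The genes were named for passing in these same libraries with the same direction at each level, so the lack of reversals is no separate check. The cause of these moves was not tested. VCD_High_PBDE_E2_P4 gave the least depth, 59 cells.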

Other observations

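Among Fabp4 fibroblasts, Hbb-bs, Ccl2 and Fos varied most from cell to cell. Within libraries, with each cell thinned to 5000 UMIs, the variance over the mean had a median of 1.053 over 3171 genes with at least 0.2 UMI per cell. Ccl2, which attracts monocytes, had 32.9 (14.0 to 76.5 over the 12 libraries), Ccl7 27.2, the growth-related chemokine gene Cxcl1 23.5, the immediate early genes Fos 30.3 and Jun 18.7, and the metallothionein gene Mt1 24.8. The top 10% of cells held 77.4 to 95.7% of Ccl2 UMIs and 41.4 to 63.4% of Cxcl1 UMIs. Hbb-bs (34.6) and Hba-a1 (18.6), the hemoglobin genes, stood above the median gene in 7 of 12 libraries, and Gsn, an actin-severing protein (27.9), Malat1 (19.5), Klf2 (19.1) and Mgp (22.5) completed the 12 highest.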
